A study of Mus musculus with 69 samples.

Results

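The circadian clock of the kidney was followed through 8 genes of its auxiliary loop and its kinases, namely Npas2, Nr1d2, Rora, Bhlhe40, Bhlhe41, Csnk1d, Csnk1e and Wee1. They were taken by symbol from the count files, and all 8 were present among 24523 gene rows. RNA was sequenced from perfused whole kidneys of female NZB/W F1 mice, a hybrid that develops lupus nephritis spontaneously with age, and 65 original libraries of 1 mouse each were used out of 69. Young mice were 12 weeks old (n = 30) and nephritic mice were 30 to 45 weeks old with proteinuria of 300 mg/dl (n = 27), with no treatment named for either, and both were killed at ZT0, 4, 8, 12, 16 or 20 (Zeitgeber time, hours after lights on). Remission mice were 36 to 50 weeks old and had been nephritic (n = 8). They had received 1 dose of cyclophosphamide at 50 mg/kg and 6 doses of CTLA4Ig (200 µg) and anti-CD40L (250 µg) within 2 weeks, and those that kept proteinuria at or below 30 mg/dl were taken 8 weeks later at ZT0 (n = 4) or ZT12 (n = 4). Age and nephritis differ together between the young and nephritic groups and cannot be told apart. In whole kidney, fewer cells of a type and less RNA per cell cannot be told apart either.

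The core of the mammalian clock is a feedback loop in which BMAL1 pairs with CLOCK or its paralog NPAS2, binds E-box elements and drives the Per, Cry and Rev-erb genes, whose products repress it. In the auxiliary loop, RORA activates and the REV-ERB repressors, among them REV-ERBβ (encoded by Nr1d2), silence Bmal1 and Npas2 through a shared response element, while BHLHE40 and BHLHE41 (DEC1 and DEC2) repress at E-boxes. The casein kinases 1δ and 1ε (Csnk1d and Csnk1e) phosphorylate PER proteins and mark them for degradation, and WEE1 is a kinase that holds CDK1 inactive before mitosis and is a known clock output.

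On mouse assembly GRCm38, Npas2 lies on chromosome 1 from 39193702 to 39363240, Bhlhe40 and Bhlhe41 lie on chromosome 6 from 108660629 to 108666925 and from 145858243 to 145865420, and Wee1 lies on chromosome 7 from 110122059 to 110143299. Rora lies on chromosome 9 from 68653404 to 69388246, Csnk1d on chromosome 11 from 120957709 to 120991350, Nr1d2 on chromosome 14 from 18204056 to 18239106 and Csnk1e on chromosome 15 from 79417852 to 79455579. A gene on the opposite strand overlaps 19.1% of the annotated exon bases of Bhlhe41, and 4.05% or less of those of Rora, Bhlhe40, Csnk1d and Csnk1e. Strand is not stated for the libraries, so reads of each overlapping pair cannot be told apart. RefSeq promoters on GRCm38.p6 matched 5 of the 8 members, Npas2, Nr1d2, Rora, Bhlhe41 and Csnk1e. The 250 bases before the start of each promoter entry were searched on both strands for the E-box CACGTG and the variant CACGTT. The ROR and REV-ERB element core TAGGTCA and the D-box TTANGTAA were searched for in the same bases. For Npas2, Rora and Csnk1e, which has several entries, these bases lie inside the gene span given above and not upstream of it. The only match among the 5 members was 1 E-box of Bhlhe41, whose first base lies 153 bases before the start, and 6.02% of 32851 promoters hold this motif in the same window. The variant was found in 3.85%, the element core in 2.23% and the D-box in 2.06% of these promoters. The windows of the 3 members called rhythmic in nephritic kidney by the main test are shown 5′ to 3′ on the gene's strand. The E-box of Bhlhe41 (chr6:145865421-145865670, minus strand) is in capitals. Npas2 (chr1:39194022-39194271, plus strand) and Nr1d2 (chr14:18239107-18239356, minus strand) have no match.
Bhlhe41: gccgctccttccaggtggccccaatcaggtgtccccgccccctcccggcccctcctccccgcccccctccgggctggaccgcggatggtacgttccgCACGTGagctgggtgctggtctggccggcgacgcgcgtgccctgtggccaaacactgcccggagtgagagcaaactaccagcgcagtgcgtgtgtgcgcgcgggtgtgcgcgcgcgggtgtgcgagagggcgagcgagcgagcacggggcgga
Npas2: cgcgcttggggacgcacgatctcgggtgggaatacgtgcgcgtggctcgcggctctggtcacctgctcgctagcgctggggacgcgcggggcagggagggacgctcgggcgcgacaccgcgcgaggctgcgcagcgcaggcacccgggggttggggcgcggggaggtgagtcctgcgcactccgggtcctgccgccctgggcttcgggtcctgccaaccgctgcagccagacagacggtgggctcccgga
Nr1d2: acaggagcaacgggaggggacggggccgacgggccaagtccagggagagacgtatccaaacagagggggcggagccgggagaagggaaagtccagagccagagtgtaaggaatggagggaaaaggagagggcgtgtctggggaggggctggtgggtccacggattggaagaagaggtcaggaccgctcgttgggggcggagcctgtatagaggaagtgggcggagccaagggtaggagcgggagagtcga

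Counts assigned to genes ranged from 25257530 to 35744843 per young library, from 26596500 to 48075977 per nephritic library and from 13311278 to 21849912 per remission library, and the lowest count of any member in any mouse was 22 reads, for Npas2 in a young mouse. Levels are given in CPM, the count of a gene relative to all counts of its library after normalization by the trimmed mean of M-values, and they are compared between mice for 1 gene at a time. A first RNA-seq set (Set 1) of 6 young and 5 nephritic mice, all at ZT0 or ZT12, was inferred from the prefix of the mouse names, since the labels name no set, and the inferred set entered each test that included young or nephritic mice as a covariate. Remission kidneys and repeat libraries of 4 young and nephritic mice were treated as 1 further sequencing run, which was inferred as well. Among the original libraries that run and remission cannot be told apart, and the repeat libraries bridge it only in alternatives. Tubular markers of kidney (Lrp2, Slc34a1, Umod, Aqp2) were detected in all groups. The 3 adrenal cortex markers (Cyp11b1, Cyp11b2, Star) were uneven between mice. Their sum ran from 3.55 to 999.6 CPM in young (median 5.91), 4.39 to 590 CPM in nephritic (5.24) and 2.69 to 6.20 CPM in remission mice (4.39). Of the 11 leukocyte markers examined, all 11 were higher in nephritic than in young kidney, with a summed level of 84.7 to 206 CPM in young and 202 to 3616 CPM in nephritic mice. All 4 injured-tubule markers were higher as well (34.0 to 143 against 43.2 to 1725 CPM), and all 4 proximal tubule markers were lower (6803 to 11528 against 1131 to 8963 CPM), and no marker was at 0 in all mice of a group. Their part in the differences below was not tested, apart from the relations within nephritic mice given for Lcn2 and Ptprc.

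The clock genes of 2 libraries went against their time label. Arntl, which encodes BMAL1, was at 18.4 CPM in nephritic ZT8 mouse RX10RU and between 2.08 and 3.76 CPM in the other 3 mice of that group. Arntl was at 27.3 CPM in remission ZT12 mouse s9 and between 3.24 and 4.93 CPM in the other 3. Results that rest on either mouse are given with and without it.

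In young kidney all 8 members had a daily rhythm (a test of 6 time points in edgeR's quasi-likelihood framework, with p-values adjusted by Benjamini-Hochberg over 16521 genes and called at 0.05 or below). The same test called 39.8% of all genes. Their profiles are drawn by mouse in the plot of levels against Zeitgeber time.

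Npas2 had the deepest rhythm of the members. Its level in young mice was 21.9 to 36.8 CPM at ZT0 (median 27.2, n = 7) and 10.8, 11.4, 11.9 and 13.1 CPM at ZT4. It was 0.926, 0.942, 1.06 and 1.10 CPM at ZT8 and 0.887 to 1.68 CPM at ZT12 (median 1.08, n = 7), then 8.00, 9.59, 10.3 and 10.8 CPM at ZT16 and 25.0, 30.9, 31.8 and 32.1 CPM at ZT20. All mice of ZT8 and ZT12 lay below all mice of the other times, and ZT8 and ZT12 overlapped. The adjusted p was 1.1e-20 (edgeR).

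Nr1d2 ran opposite to Npas2. It was 35.7 to 48.7 CPM at ZT0 (median 40.02, n = 7), 81.3, 98.0, 101 and 103 CPM at ZT4 and 164, 166, 170 and 174 CPM at ZT8. It was 139 to 190 CPM at ZT12 (median 161, n = 7), 47.7, 48.6, 54.1 and 54.4 CPM at ZT16, and 22.9, 23.4, 24.7 and 33.8 CPM at ZT20. ZT8 and ZT12 overlapped at the top of its range, and ZT20 lay below every other time (adjusted p = 1.21e-18, edgeR).

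Bhlhe41 and Wee1 peaked in the same part of the day. Bhlhe41 was lowest at ZT0 (2.56 to 3.44 CPM, median 3.28, n = 7) and highest at ZT8, with 13.3, 13.8, 14.5 and 16.6 CPM, above all mice of ZT12 (7.53 to 9.81 CPM, median 8.60, n = 7). Wee1 was lowest at ZT4, with 15.2, 15.3, 15.97 and 17.6 CPM, and highest at ZT12 (41.4 to 55.4 CPM, median 47.0, n = 7), where every mouse lay above the 4 mice of ZT8 (31.8, 35.1, 38.6 and 38.7 CPM). Their adjusted p values were 1.97e-13 and 3.42e-12 (edgeR).

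The other 4 members varied within narrow limits in young kidney. Median levels at the 6 time points lay between 131 and 209.7 CPM for Bhlhe40 (adjusted p = 0.00842), between 52.0 and 70.8 CPM for Rora (0.00566), between 16.7 and 23.3 CPM for Csnk1e (0.00155) and between 125 and 150.5 CPM for Csnk1d (0.00815), all by edgeR. Individual mice overlapped between many of the time points for these genes. For Csnk1d the 4 mice of ZT8, between 125 and 127 CPM, lay clear of the 7 mice of ZT0, between 144 and 155 CPM. For Csnk1e the 7 mice of ZT0, between 13.7 and 19.2 CPM, lay clear of the 7 mice of ZT12, between 20.3 and 25.4 CPM.

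**Figure D1:**
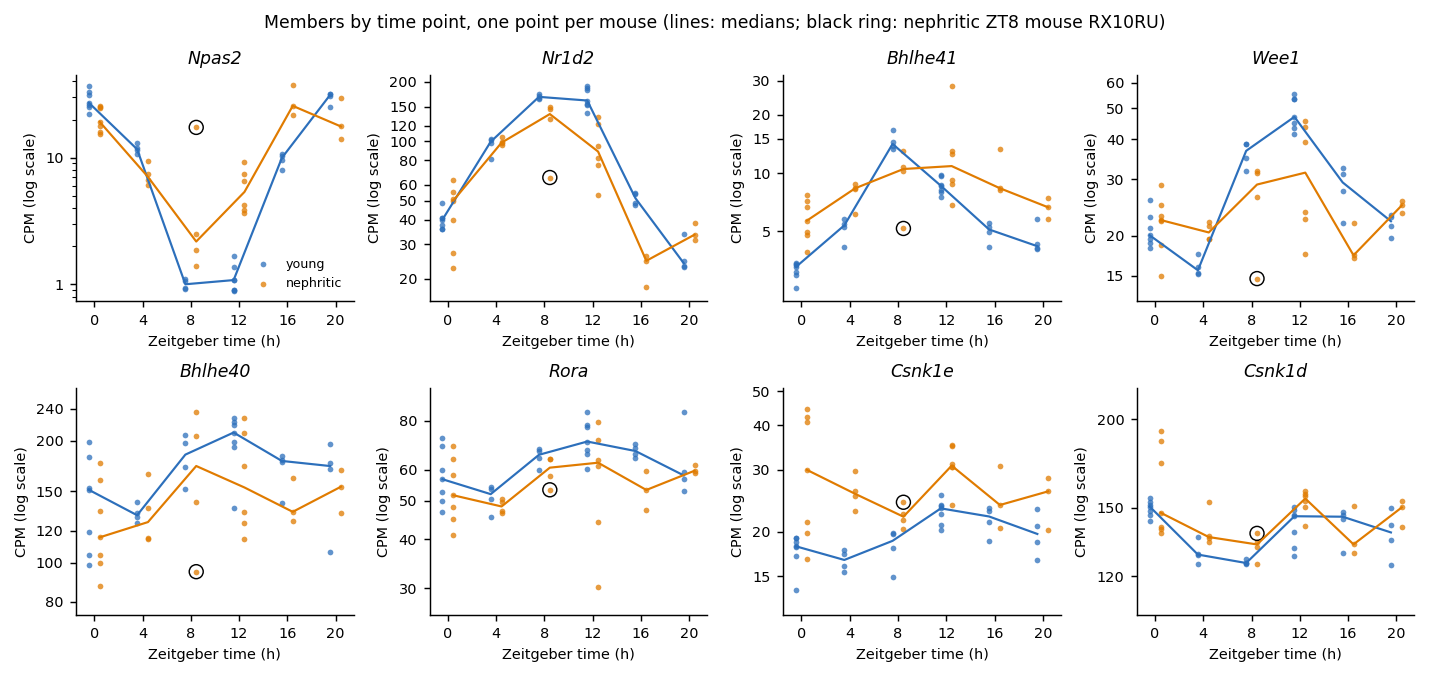
Level of each member (CPM, log scale) against Zeitgeber time in hours, with 1 point per mouse for 30 young (blue) and 27 nephritic (orange) mice and lines through the medians. At ZT12 the 7 young mice lie between 0.887 and 1.68 CPM for Npas2 and the 6 nephritic mice between 3.67 and 9.29 CPM. The ringed nephritic ZT8 mouse RX10RU lies at 17.3 CPM for Npas2, above the other 3 mice of its time.

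In nephritic kidney 3 of the 8 members had a daily rhythm by the same test, which called 21.6% of all genes. They were Nr1d2 (adjusted p = 8.06e-05, edgeR), Npas2 (0.00425) and Bhlhe41 (0.00848). Wee1 had an adjusted p of 0.0774, Csnk1d 0.135, Bhlhe40 0.269, Rora 0.391 and Csnk1e 0.58. Without mouse RX10RU the adjusted p of Wee1 was 0.0343 (edgeR), and it was also below 0.05 without ZT0 replicate 3 or ZT12 replicate 1 or 3, with a range of 0.033 to 0.193 over the 27 mice left out in turn. By DESeq2 over all 27 mice Wee1 passed too, which made 4 members, among 5646 of 16840 genes. In Set 2 alone Wee1 (0.0104) and Rora (0.0148) passed as well, which made 5 members, among 4486 of 16651 genes.

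Whether the daily profile differed between nephritic and young kidney was tested by an interaction of group and time point. The profile differed for 4 of the 8 members, against 6.27% of 17521 genes. The adjusted p was 3.96e-06 for Npas2, 0.00537 for Nr1d2, 0.0191 for Bhlhe41 and 0.0383 for Wee1, and between 0.29 and 0.97 for the others (edgeR). Without mouse RX10RU the same 4 passed. With a 24 h cosine in place of the time points only Npas2 and Nr1d2 passed, and Bhlhe41 (adjusted p = 0.229) and Wee1 (0.175) did not. That test called fewer genes throughout, 121 of 17521 against 1099 with time points. The call for Wee1 was lost on leaving out any of 8 mice, 4 young (ZT4 replicates 2 and 4, ZT12 replicates 6 and 7) and 4 nephritic (ZT4 replicates 1 and 4, ZT16 replicates 1 and 3), with adjusted p up to 0.0577.

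Nephritic Npas2 was 15.4 to 25.4 CPM at ZT0 (median 19.2, n = 7), 6.13, 6.71, 7.41 and 9.38 CPM at ZT4, and 1.40, 1.85, 2.51 and, in RX10RU, 17.3 CPM at ZT8. It was 3.67 to 9.29 CPM at ZT12 (median 5.37, n = 6), 21.6, 25.7 and 37.6 CPM at ZT16, and 14.02, 17.6 and 29.7 CPM at ZT20. All nephritic mice lay above all young mice at ZT8, ZT12 and ZT16 and below them at ZT4, and the groups overlapped at ZT0 and ZT20. The difference at ZT4 did not pass (adjusted p = 0.124, edgeR). The share of all genes whose groups separate in this way was not counted, here or for the members below. The highest time point was ZT16 in nephritic and ZT20 in young kidney.

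Nephritic Nr1d2 was 22.8 to 63.3 CPM at ZT0 (median 50.0, n = 7), 95.3, 98.2, 98.6 and 105 CPM at ZT4, and 129, 146, 149 and, in RX10RU, 65.4 CPM at ZT8. It was 53.4 to 133 CPM at ZT12 (median 88.6, n = 6), 18.1, 24.7 and 26.2 CPM at ZT16, and 31.7, 33.6 and 38.3 CPM at ZT20. All nephritic mice lay below all young mice at ZT8, ZT12 and ZT16, and the groups overlapped at the other times. The difference at ZT8 did not pass (adjusted p = 0.244, edgeR).

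Nephritic Bhlhe41 was 3.92 to 7.66 CPM at ZT0 (median 5.68, n = 7), 6.17, 8.28, 8.40 and 8.75 CPM at ZT4, and 10.3, 10.7, 13.0 and, in RX10RU, 5.17 CPM at ZT8. It was 6.83 to 28.1 CPM at ZT12 (median 10.9, n = 6), 8.19, 8.34 and 13.4 CPM at ZT16, and 5.80, 6.65 and 7.41 CPM at ZT20. Its nephritic mice lay above all young mice at ZT0, ZT4, ZT16 and ZT20 and below them at ZT8 alone, with an overlap at ZT12. The differences at ZT4 (adjusted p = 0.0774), ZT8 (0.166) and ZT20 (0.288) did not pass by edgeR. At ZT20 the lowest nephritic mouse had 5.80 CPM and the highest young mouse 5.78 CPM.

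Nephritic Wee1 was 14.9 to 28.9 CPM at ZT0 (median 22.4, n = 7) and 19.6, 19.6, 21.4 and 22.1 CPM at ZT4. It was 26.5, 31.3, 32.0 and, in RX10RU, 14.7 CPM at ZT8, and 17.6, 22.6, 23.7, 39.3, 43.8 and 45.7 CPM at ZT12. It was 17.1, 17.4 and 21.9 CPM at ZT16 and 23.6, 24.9 and 25.8 CPM at ZT20. At ZT12, 3 of the 6 nephritic mice lay far below the young range, and the other 3, all of Set 2, lay at its lower end or just below. Of the lower mice, 17.6 and 22.6 CPM belonged to HIL5RU and HIL5LL, the Set 1 nephritic mice of that time, and 23.7 CPM to RX8RU of Set 2.

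The size of the rhythm was read from a 24 h cosine fitted to log2 CPM in each group, with the amplitude as the distance from the mean to the peak. It was lower in nephritic than in young kidney for all 8 members, and for 56.7% of all 17587 genes measured. For Npas2 the amplitude was 2.69 (SE 0.12) in the young mice and fell to 1.51 (SE 0.23) in the nephritic mice, a difference of -1.18 (95% interval -1.69 to -0.68). For Wee1 it was 0.64 (SE 0.06) and 0.17 (SE 0.10), a difference of -0.47 (-0.70 to -0.24). For Bhlhe41 it was 0.89 (SE 0.08) and 0.51 (SE 0.10), a difference of -0.38 (-0.64 to -0.12). These 3 intervals exclude 0, but they are descriptive and not adjusted for the number of genes. With a cosine in the test of a different profile, which called 121 of 17521 genes, Npas2 passed and Bhlhe41 and Wee1 did not. Without RX10RU no member's amplitude difference moved by as much as its SE.

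For Nr1d2 the amplitude was 1.44 (SE 0.04) and 1.16 (SE 0.15), and the interval of its difference of -0.28, from -0.59 to 0.03, spans 0. Without RX10RU that difference was -0.18 (SE 0.15). The intervals also span 0 for Rora (-0.31 to 0.03), Bhlhe40 (-0.30 to 0.08), Csnk1e (-0.40 to 0.04) and Csnk1d (-0.11 to 0.08). For Npas2 the nephritic amplitude was 1.72 without RX10RU, a difference of -0.97 (SE 0.22). When the range of the time point means divided by 2 was used as the size, the nephritic minus young difference was -0.88 for Npas2, -0.53 for Bhlhe41 and -0.34 for Wee1, and it was 0.02 for Csnk1d.

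The cosine peak of Npas2 lay at 22.1 h (SE 0.19) in young mice and at 20.2 h (SE 0.53) in nephritic mice, 1.90 h earlier (SE 0.56). The peak of Nr1d2 lay at 8.93 h (SE 0.12) and 7.29 h (SE 0.42), 1.63 h earlier (SE 0.43). For both genes the shift was over 3 times its SE, and without RX10RU it was 1.99 h (SE 0.41) for Npas2 and 1.62 h (SE 0.37) for Nr1d2. The peak of Bhlhe41 lay at 9.74 h (SE 0.39) and 11.5 h (SE 0.94), 1.74 h later with an SE of 1.02 h. The shift could not be placed for Wee1 (SE 2.95 h), nor for the 4 members of low amplitude, whose SEs were 2.54 to 8.39 h.

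**Figure D2:**
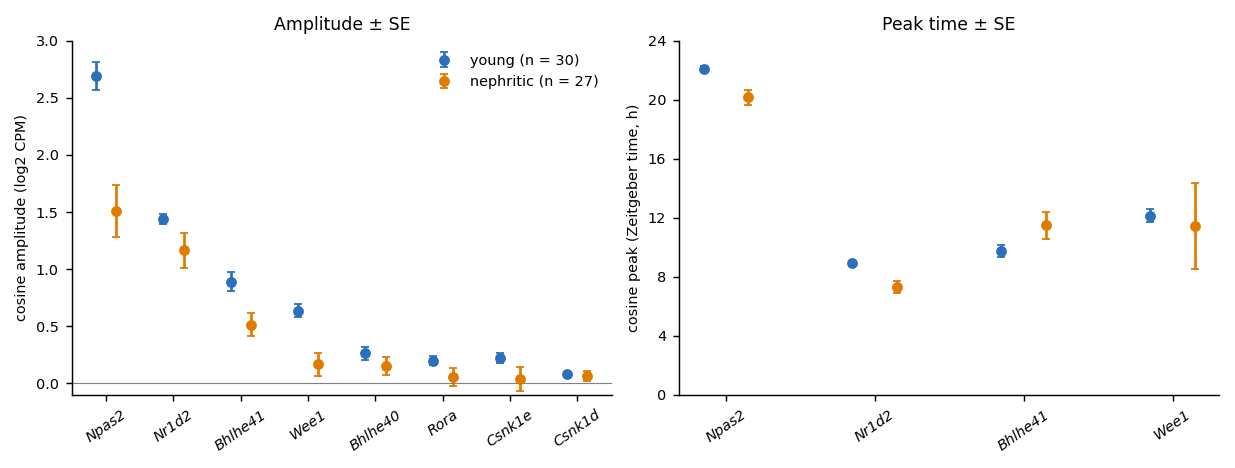
Cosine amplitude in log2 CPM for the 8 members (left) and cosine peak in hours of Zeitgeber time for the 4 members whose profile differed (right), as estimate ± SE in 30 young and 27 nephritic mice. The amplitude of Npas2 is 2.69 in young and 1.51 in nephritic kidney, and its peak moves from 22.1 h to 20.2 h.

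Taken time by time, most of the members that differed did so at ZT12 and ZT16, and at ZT12 their share lay near that of all genes. At ZT12, 5 of the 8 members passed, 3 higher and 2 lower in nephritic kidney (50.0% of all genes did, 25.8% higher and 24.2% lower), with Npas2 higher by 2.38 on the log2 scale (SE 0.33, adjusted p = 8.18e-08, edgeR), Bhlhe41 by 0.57 (SE 0.19) and Csnk1e by 0.44 (SE 0.14), and with Nr1d2 at -0.85 (SE 0.18) and Wee1 at -0.60 (SE 0.16). In Set 2 alone, Npas2 (2.20) and Nr1d2 (-0.59) passed at ZT12 and Csnk1d (0.18, adjusted p = 0.0474) was added, whereas Bhlhe41 (0.09, adjusted p = 0.774), Csnk1e (0.29, 0.228) and Wee1 (-0.21, 0.309) did not pass. There 5080 of 17339 genes passed. Bhlhe41 also lost its call at ZT12 without Set 1 mouse HIL5RU, which had 28.1 CPM, where the log2 difference was 0.25 (adjusted p = 0.226). Rora stood at -0.31 (SE 0.14, adjusted p = 0.0567) and passed without young ZT12 replicate 3, nephritic ZT0 replicate 3 or nephritic ZT12 replicate 5 or 6, with adjusted p down to 0.0104. It also passed with no filter on low counts (adjusted p = 0.0489, edgeR), by limma (0.0218), by DESeq2 (0.0452) and with the repeat libraries in place of 4 originals (0.00895, edgeR), where Bhlhe40 passed too (-0.43, 0.0408). These repeats include that of nephritic ZT12 mouse RX11RU, which lay nearer to a nephritic ZT4 mouse than to its own original. In Set 2 alone Rora was at 0.02 (adjusted p = 0.885, edgeR).

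At ZT16, where all mice were of Set 2, 4 of the 8 members passed, 2 in each direction (17.7% of all genes, 10.1% higher and 7.66% lower). Npas2 was higher by 1.52 (SE 0.39, adjusted p = 0.00466) and Bhlhe41 by 0.97 (SE 0.26, 0.00531), while Nr1d2 was at -1.18 (SE 0.25, 0.000447) and Wee1 at -0.62 (SE 0.22, 0.0453), all by edgeR. Wee1 missed the threshold under other size factors, without a filter on low counts and by limma, with adjusted p between 0.0507 and 0.0572, and on leaving out any of 29 of 57 mice. Bhlhe41 missed it without ZT16 mouse RX9RU (0.73, adjusted p = 0.0686). In a fit of Set 2 alone Rora passed at ZT16 as well (-0.33, adjusted p = 0.0339, edgeR), which made 5 members, among 4512 of 17339 genes.

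Fewer members passed before ZT12, and the time points were not compared with each other by a test. At ZT0, 2 of 8 passed, both higher (39.5% of all genes, 20.1% higher and 19.4% lower), Bhlhe41 (0.85, SE 0.18, adjusted p = 0.000347) and Csnk1e (0.78, SE 0.14, 2.67e-05), and at ZT4 only Csnk1e did (0.57, SE 0.18, 0.0155, with 30.3% of all genes, 13.9% higher and 16.4% lower). At ZT8, 1 of 8 passed (3.66% of all genes, 2.83% higher and 0.833% lower). This was Npas2 at 2.47 (SE 0.43), and without RX10RU it was 0.94 with an adjusted p of 0.124, so that no member passed, while 155 of 17507 genes did. Without that mouse Npas2 passed in the lower direction at ZT0 (-0.48, adjusted p = 0.0195) and at ZT4 (-0.69, 0.0173), and Bhlhe41 passed at ZT4 (0.59, 0.0351), against 0.54 (0.0774) with it. Bhlhe41 also passed at ZT4 in Set 2 alone (0.61, 0.0164) and on leaving out young ZT0 replicate 7, young ZT20 replicate 3, or nephritic ZT4 replicate 4, ZT8 replicate 4, ZT12 replicate 1, 2 or 3 or ZT16 replicate 3. At ZT20 no member passed by edgeR, limma or DESeq2 (0 of 8 at an unadjusted p under 0.05 by edgeR), and 5.48% of all genes did by edgeR (4.56% higher and 0.919% lower).

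**Figure D3:**
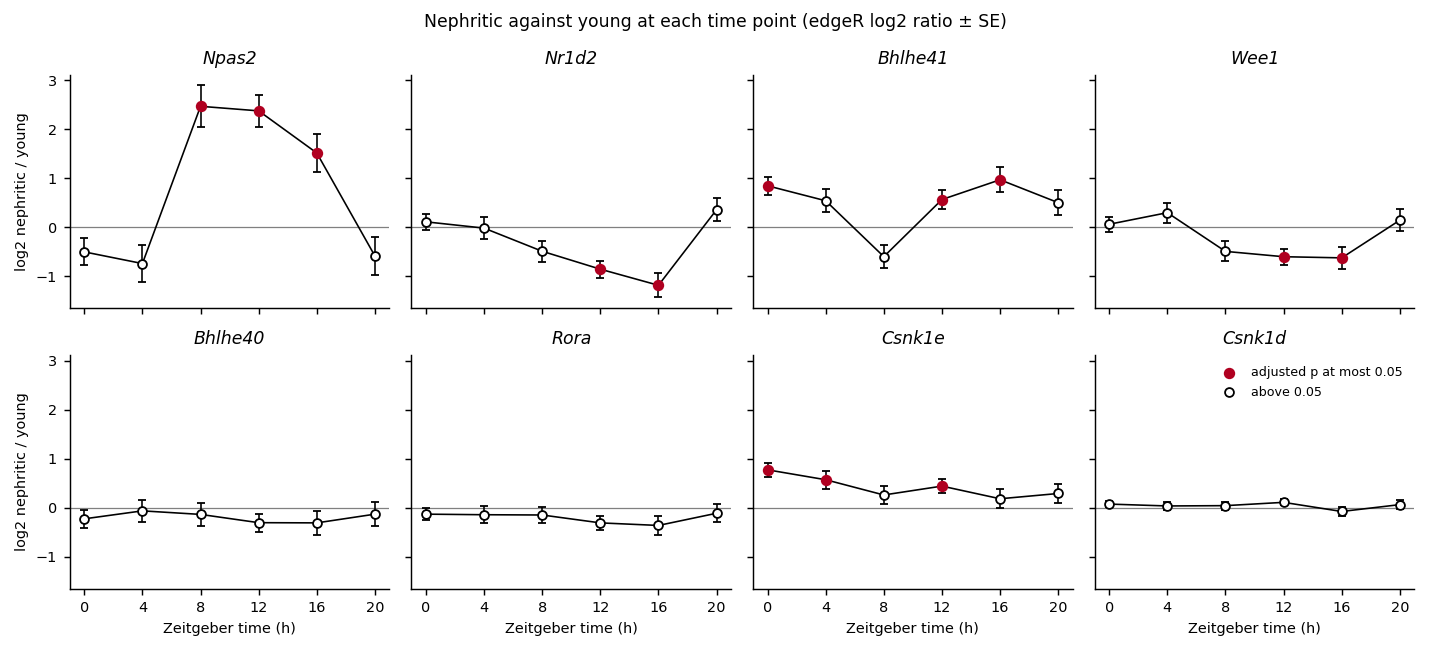
Log2 ratio of nephritic to young level (edgeR, ± SE) at each Zeitgeber time in hours for the 8 members, with filled red points where the adjusted p was at most 0.05. Npas2 is positive and Nr1d2 negative at ZT12 and ZT16, while Csnk1e is positive at all 6 times.

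Averaged over the day, 7 of the 8 members differed in level between nephritic and young kidney, among 62.1% of all genes, so that a difference in level was common throughout. Csnk1e was higher by 0.47 on the log2 scale (SE 0.07, adjusted p = 1.79e-07, edgeR), Bhlhe41 by 0.51 (SE 0.11, 6.34e-05) and Npas2 by 0.66 (SE 0.25, 0.0182), and 28.1% of all genes were higher. Nr1d2 (-0.33, SE 0.11, 0.00817), Rora (-0.20, SE 0.06, 0.00555), Bhlhe40 (-0.20, SE 0.09, 0.0347) and Wee1 (-0.20, SE 0.09, 0.0472) were lower, as were 33.9% of all genes. Csnk1d was at 0.06 (SE 0.03, 0.095). The median log2 difference was -0.07 over the 8 members and -0.03 over all genes.

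The higher levels held more firmly than the lower ones. In Set 2 alone, which is 24 young and 22 nephritic mice, Csnk1e (0.44), Bhlhe41 (0.37), Npas2 (0.67) and Csnk1d (0.09, adjusted p = 0.00898) passed, all higher, and none of the 4 lower members did. Of 17339 genes 9686 passed in Set 2, 4842 higher and 4844 lower. There Nr1d2 was at -0.20 (adjusted p = 0.127), Rora at -0.07 (0.18), Bhlhe40 at -0.02 (0.882) and Wee1 at -0.10 (0.329). Under relative log expression size factors the split was 4 higher and 2 lower, with Csnk1d passing at 0.07 and Bhlhe40 and Wee1 not passing, and by DESeq2 it was 4 and 3. Of all genes 10847 of 17521 and 10997 of 17504 passed under these settings. On leaving out each of 57 mice in turn the call was lost for Wee1 with 44 mice and for Bhlhe40 with 27, and Csnk1d gained it with 31. Without RX10RU, Csnk1d was gained and Bhlhe40 and Wee1 were lost, while Npas2 kept its call. That left 6 members, 4 higher and 2 lower, among 10659 of 17507 genes. On the linear scale the mean of Npas2 was the same in both groups, 13.99 CPM, with an SD of 12.7 over 30 young mice and of 9.78 over 27 nephritic mice, and its lowest mouse had 0.887 CPM in the young and 1.40 CPM in the nephritic group.

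The nephritic mice differed widely in Csnk1e, most of all at ZT0. The 7 nephritic mice of ZT0 had 16.8, 19.9, 21.3, 30.0, 40.8, 42.4 and 44.4 CPM, against 13.7 to 19.2 CPM in the 7 young mice of ZT0. The 3 lowest of them lay at or just above the young range and the 3 highest at over 2 times the highest young value. Csnk1d in the same 7 mice was 138, 140, 141, 148, 173, 186 and 193 CPM, against 144 to 155 CPM in young mice of ZT0.

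The members were also set against Lcn2, which encodes the tubular injury protein lipocalin 2, and against Ptprc, which encodes the pan-leukocyte antigen CD45. Within the 27 nephritic mice, deviations in log2 CPM from the mean of the same time point and set were correlated for all 8 members with both markers, 16 relations in all, by a two-sided permutation test within time point and set. Csnk1e followed Lcn2, with a Pearson r of 0.90 (p = 0.00012, adjusted p = 0.00192, permutation) and a Spearman rho of 0.84 (p = 0.00049, adjusted p = 0.00784, permutation). Without the 2 mice farthest from the median of Lcn2 the r was 0.87, and in Set 2 alone it was 0.87 (adjusted p = 0.0122, permutation). Csnk1d followed Lcn2 as well, with an r of 0.81 (p = 0.00116, adjusted p = 0.00928, permutation), a rho of 0.75 (p = 0.00258, adjusted p = 0.0206, permutation), an r of 0.76 without the 2 farthest mice and an r of 0.81 in Set 2 alone (adjusted p = 0.0386, permutation). The log2 CPM of the 2 kinases ran together over the nephritic mice (r = 0.84, against 0.20 over the young mice), so these relations are not independent. Neither kinase passed with Ptprc, where r was 0.11 and rho 0.12 for Csnk1e (adjusted p = 0.531 and 0.671, permutation) and r was -0.16 and rho -0.23 for Csnk1d (0.531 and 0.444).

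None of the other members passed with Lcn2, where r ranged from -0.45 for Bhlhe40 (adjusted p = 0.0941, permutation) to 0.33 for Rora (0.496). With Ptprc, Bhlhe41 had an r of 0.30 (p = 0.424, adjusted p = 0.566, permutation) and a rho of 0.45 (p = 0.104, adjusted p = 0.278, permutation) over 27 mice. Without the 2 mice farthest from the median of Ptprc the r was 0.79, and without RX10RU it was 0.80 (adjusted p = 0.00272, permutation), an exclusion chosen after the values were seen. In Set 2 alone, with RX10RU, it was 0.05. Over all 27 mice the r farthest from 0 with Ptprc was that of Wee1, at -0.49 (p = 0.0486, adjusted p = 0.195, permutation), and it was -0.28 without RX10RU.

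**Figure D4:**
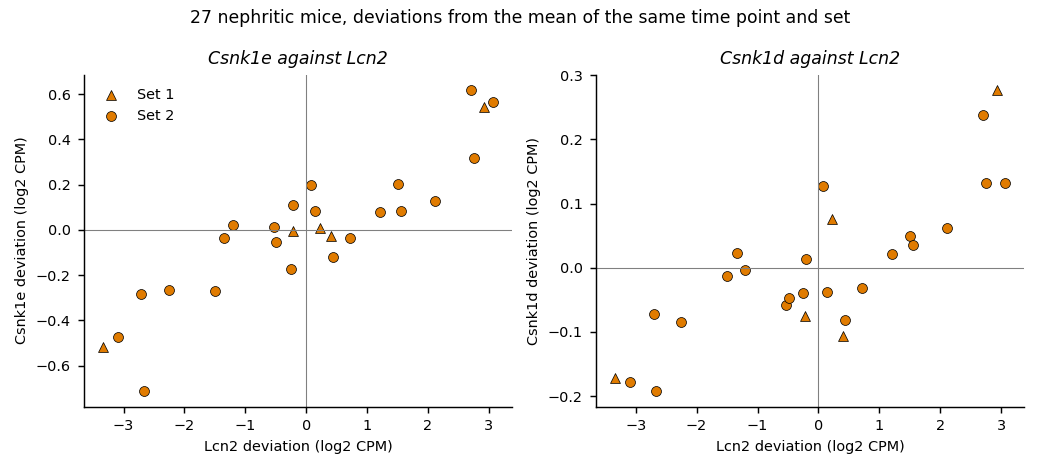
Deviation of Csnk1e (left) and Csnk1d (right) from the mean of the same time point and set against that of Lcn2, all in log2 CPM, with 1 point per nephritic mouse (n = 27, triangles Set 1, circles Set 2). The points climb from lower left to upper right in both panels, with r = 0.90 for Csnk1e and 0.81 for Csnk1d.

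Remission was examined at ZT0 and ZT12, as the log2 ratio of ZT0 to ZT12. In young mice the ratio was 4.66 (SE 0.13) for Npas2, -2.06 (SE 0.07) for Nr1d2, -1.46 (SE 0.09) for Bhlhe41 and -1.21 (SE 0.07) for Wee1, and 7 of 8 members passed, 1 higher and 6 lower at ZT0, Csnk1d being the exception (16.6% of all genes, 7.59% higher and 9.05% lower, edgeR). In nephritic mice 1 of 8 passed (0.0746% of all genes, 0.0498% higher and 0.0249% lower at ZT0), Npas2 with a ratio of 1.82 (SE 0.23, adjusted p = 0.0157, edgeR), and it missed the threshold without ZT12 replicate 4 (0.0529) or 6 (0.0684). Nephritic ratios were -1.04 for Nr1d2 (adjusted p = 0.13), -1.12 for Bhlhe41 (0.112) and -0.43 for Wee1 (0.442). By DESeq2, which called 594 of 16026 genes, Nr1d2 and Bhlhe41 passed there as well.

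In remission Npas2 was 10.03, 13.6, 13.9 and 16.8 CPM at ZT0, and 1.59, 1.75, 2.42 and, in s9, 16.1 CPM at ZT12. Nr1d2 was 36.2, 49.5, 49.9 and 62.2 CPM at ZT0, and 106, 114, 130 and, in s9, 42.0 CPM at ZT12. For Npas2 and Nr1d2, 3 of the 4 ZT12 mice lay clear of all ZT0 mice and s9 lay within the ZT0 range. Bhlhe41 was 3.59, 5.67, 7.31 and 7.91 CPM at ZT0, and 11.2, 13.6, 24.9 and, in s9, 5.73 CPM at ZT12. Wee1 was 15.8, 18.2, 19.1 and 19.6 CPM at ZT0, and 31.5, 45.8, 52.2 and, in s9, 14.7 CPM at ZT12. The same 3 mice lay above all ZT0 mice for both genes.

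Over all 8 remission mice no member passed by edgeR, limma or DESeq2, and neither did any of 14451 genes by edgeR (0%), while DESeq2 called 24 of 14449. The ratios were 1.35 (SE 0.69) for Npas2, -0.97 (SE 0.30) for Nr1d2, -1.18 (SE 0.41) for Bhlhe41 and -0.98 (SE 0.32) for Wee1, and 3 members had an unadjusted p under 0.05 (Nr1d2, Bhlhe41 and Wee1). Without s9, 3 of 8 passed, Npas2 with a ratio of 2.83 (SE 0.24, adjusted p = 0.00422, edgeR), Nr1d2 with -1.22 (SE 0.16, 0.0129) and Wee1 with -1.24 (SE 0.16, 0.0136), and 202 of 14316 genes did. Bhlhe41 then had -1.43 (SE 0.34, 0.086). Mouse s9 was set apart by its clock gene levels in these same data, so calls without it are not independent of that choice.

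**Figure D5:**
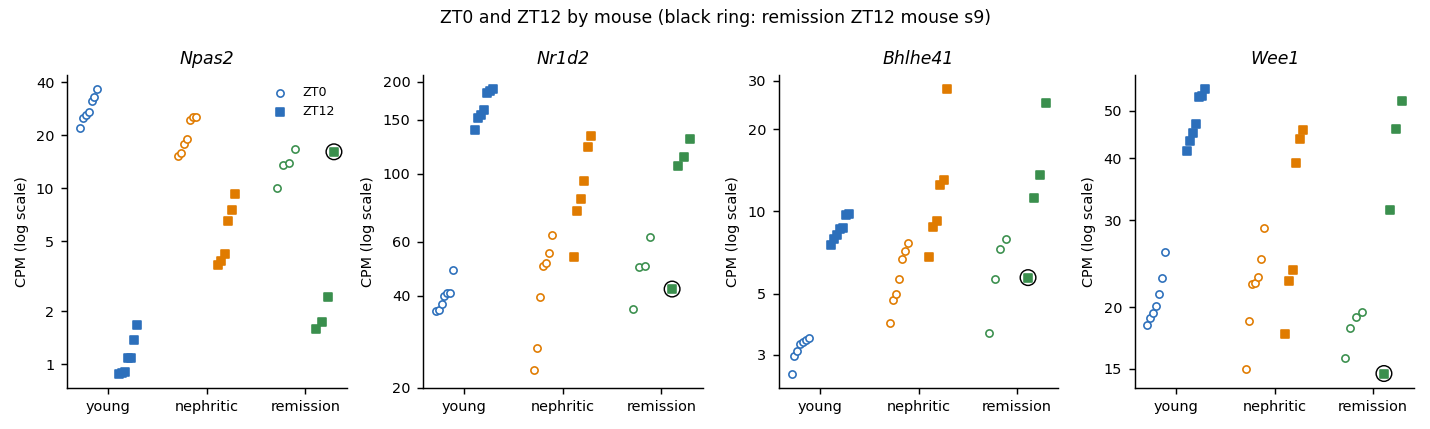
Level (CPM, log scale) of Npas2, Nr1d2, Bhlhe41 and Wee1 by mouse at ZT0 (open circles) and ZT12 (filled squares) in young, nephritic and remission kidney, with remission ZT12 mouse s9 ringed. The other 3 remission mice of ZT12 lie between 1.59 and 2.42 CPM for Npas2, between the young range of 0.887 to 1.68 CPM and the nephritic range of 3.67 to 9.29 CPM, with a partial overlap with the former.

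Differences between groups in the ZT0 to ZT12 ratio were tested in 1 fit over 35 mice. Between remission and nephritic mice no member differed by edgeR, limma or DESeq2 (0 at an unadjusted p under 0.05). Of all genes 0% differed by edgeR and by limma, and 7 of 16840 by DESeq2. The log2 difference of the ratios was -0.46 (SE 0.54) for Npas2 over all mice and 1.02 (SE 0.33, adjusted p = 0.32, edgeR) without s9, so its sign turned with that mouse. Between remission and young mice 1 of 8 differed (0.0178% of all genes, all lower), Npas2 at -3.31 (SE 0.56, adjusted p = 0.0228, edgeR). It was -1.84 (SE 0.34, 0.108) without s9, did not pass by limma or DESeq2, and was also lost without young ZT12 replicate 6 or remission ZT0 replicate 1, 2 or 4, with adjusted p up to 0.118. Nr1d2 was at 1.08 (SE 0.35, unadjusted p = 0.00419, adjusted p = 0.998, edgeR). Between nephritic and young mice 1 of 8 differed (0.0772% of all genes, 0.0416% higher and 0.0356% lower), again Npas2, at -2.86 (SE 0.48, adjusted p = 0.00819, edgeR). By DESeq2 no member passed, while 148 of 16840 genes did.

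In level, averaged over ZT0 and ZT12, no member passed between remission and nephritic kidney (37.8% of all genes did, 17.1% higher and 20.8% lower, edgeR). Csnk1e came nearest at -0.34 (SE 0.14, adjusted p = 0.0503), and it was the 1 member with an unadjusted p under 0.05. It passed by DESeq2 (0.0424), with the run bridged by the repeat libraries (-0.61, 0.0153), and on leaving out young ZT0 replicate 4, nephritic ZT0 replicate 2, 5 or 7, nephritic ZT12 replicate 5 or remission ZT0 replicate 4 (adjusted p down to 0.00887). Its 8 remission mice lay between 20.7 and 26.9 CPM, against 16.8 to 44.4 CPM in the 13 nephritic mice of ZT0 and ZT12. Without s9 Npas2 passed at -0.98 (SE 0.18, adjusted p = 8.47e-05, edgeR), against -0.25 over all 8. That call, too, depends on setting s9 apart by its own clock gene levels. Between remission and young kidney Bhlhe41 passed at 0.95 (SE 0.21, adjusted p = 0.000483, edgeR), 1 of 8 members among 41.6% of all genes (21.1% higher and 20.5% lower), and was at 0.94 with the run bridged (0.026). The bridged values of Csnk1e and Bhlhe41 include the repeat of RX11RU, which lay nearer to a nephritic ZT4 mouse than to its own original. Npas2 stood at 0.70 (SE 0.29, 0.0526) over all 8 mice and at -0.03 (0.9) without s9. It passed on leaving out young ZT12 replicate 4, nephritic ZT0 replicate 3 or 6, nephritic ZT12 replicate 3, remission ZT0 replicate 1 or any of the other 3 remission mice of ZT12, with adjusted p down to 0.0152. Without remission ZT12 replicate 1, Wee1 passed as well (adjusted p = 0.049, against 0.158).

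Among the clock genes around the members, all 8 of the core loop (Arntl, Clock, the 3 Per genes, the 2 Cry genes and Nr1d1) had a rhythm in young kidney, 7 of 8 in nephritic kidney, and 3 of 8 differed between them, Arntl (adjusted p = 3.96e-06, edgeR), Per3 and Per2. Of 7 other loop and output factors, 6 were rhythmic in young and 5 in nephritic kidney, and Dbp and Ciart differed. Of 16 genes for PER and CRY turnover, which include casein kinase 2, 8 were rhythmic in young and 4 in nephritic kidney. For a different rhythm 3 of the 16 had an unadjusted p under 0.05, the lowest adjusted p being 0.0724 for Fbxl21 (edgeR). In level 9 of the 16 were lower and 2 higher in nephritic kidney. Of everything tested, the young rhythm was called for 39.8%, the nephritic rhythm for 21.6%, a different rhythm for 6.27% and a difference in level for 62.1% of genes, and the counts for the turnover genes lay near these shares. The lower ones included the ubiquitin ligase gene Btrc (-0.24) and the AMP kinase subunit gene Prkaa2 (-0.55). Of 12 G2/M genes, among them Cdk1 and its cyclins, 11 were higher in nephritic kidney, with Top2a at 2.73 and Mki67 at 2.81, whereas Wee1 itself was at -0.20.

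Over the 30 young libraries the genes whose log2 CPM ran closest to a member were Dtx4 (r = 0.98) and Arntl (0.97) for Npas2, Dbp (0.92) and Klf13 (0.90) for Nr1d2, Ciart (0.94) and Cpeb3 (0.94) for Bhlhe41, and Usp2 (0.95) and Tnfrsf21 (0.94) for Wee1. For Rora they were Dync2h1 (0.84) and Hivep2 (0.84), for Bhlhe40 Herpud1 (0.85) and Trib1 (0.84), for Csnk1d Ihh (0.92) and Rbm15b (0.86), and for Csnk1e Map3k6 (0.87) and Adora1 (0.86). These are the highest values among all genes tested and carry no p, and the libraries share time of day.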

How the data were processed

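Perfused whole kidneys were lysed in TRIzol and mRNA taken on oligo-dT beads was made into libraries and sequenced on an Illumina HiSeq instrument. The authors deposited raw read counts per gene, 1 value per gene and mouse, made per the study's methods by a Burrows-Wheeler alignment of uniquely placed reads, while the submitters' processing notes name HISAT and mm10. The counting program is not given in the sources used here. The members and gene lists were chosen with earlier results of these data known.

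Genes with at least 100 reads over the mice of a fit were tested with edgeR 4.0.16 (R 4.3.3, TMM normalization, quasi-likelihood F test), with time point, group and RNA-seq set as terms and Benjamini-Hochberg adjustment over all genes tested. A call is an adjusted p of at most 0.05, fold changes are log2, and the SE is the fold change divided by the root of its F statistic. Amplitude and peak come from a 24 h cosine and sine fitted to log2 CPM with a prior count of 2. Correlations used 100000 permutations within time point and set. Set 1 was taken from the prefix of the mouse names. The labels give each library as a separate mouse, and no 2 libraries agreed within sampling noise. Replicate numbers follow sample order. Repeat libraries of 4 mice, taken as part of the inferred remission run, served only in alternatives. Of these, the repeat of nephritic ZT12 mouse RX11RU lay nearer to nephritic ZT4 mouse RX11LU (r = 0.991) than to its own original (r = 0.978). It entered both the bridged fits and those with repeats in place of originals, and a swap was not tested. On simulated counts, 82% of 50 young rhythms of log2 amplitude 0.5 were recovered, and 66% of 50 rhythms of that size lost in nephritic mice. Recovery was not tested at the smaller young amplitudes of Rora, Bhlhe40, Csnk1e and Csnk1d, which ran from 0.08 to 0.26. Named genes are all 8 members, up to 3 genes of smallest p per list and comparison, and 2 genes of highest correlation per member. Alternatives were DESeq2 1.42.0, limma 3.58.1, RLE size factors, no filter, a cosine in place of time points, Set 2 alone, no set term, the repeat libraries, and leaving out mice.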

Additional observations from a re-analysis of the deposited data

Results flagged for a closer look

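Single mice stood apart from their group for 6 of the 8 members, by a gap to the nearest mouse that exceeded Dixon's critical value. Of 96 sets of 4 or more mice tested, 11 held such a mouse, and chance alone marks about 1 in 20. Npas2 was highest in nephritic ZT8 mouse RX10RU at 17.3 CPM and in remission ZT12 mouse s9 at 16.1 CPM, the mice whose clock genes went against their time label. Nr1d2 was highest in young ZT0 mouse CR6LL at 48.7 CPM, and young ZT20 mouse ZT20LU was highest for both Nr1d2 at 33.8 CPM and Bhlhe41 at 5.78 CPM. Bhlhe41 was highest in nephritic ZT12 mouse HIL5RU at 28.1 CPM. Bhlhe40 was lowest in young ZT12 mouse ZT12RU at 136 CPM, and young ZT16 mouse ZT16RU was lowest for both Bhlhe40 at 141 CPM and Csnk1d at 129 CPM. Csnk1d was highest in nephritic ZT4 mouse RX11LU at 153 CPM and Csnk1e was lowest in young ZT0 mouse ZT00 at 13.7 CPM. The part of these mice in other results was not tested beyond leaving each of them out.

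An effect of time that differed between groups was found for 4 members by the interaction term of edgeR. The profile over 6 time points differed between nephritic and young mice for Npas2 (adjusted p = 3.96e-06), Nr1d2 (0.00537), Bhlhe41 (0.0191) and Wee1 (0.0383). The ZT0 to ZT12 ratio of Npas2 differed between remission and young mice (adjusted p = 0.0228), a call lost without s9, and between nephritic and young mice (0.00819).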

How the results depend on the processing

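No paired analysis was possible because the labels carry names of single mice and no replicate number shared between groups. Of 1091 values under an alternative, 1036 kept their side of the threshold or, for amplitude differences, stayed within 1 SE. Of the rest, 22 no longer passed, 28 newly passed, 5 amplitude differences moved further and 0 turned in sign while called. A turn in sign of a value called in neither setting was not counted. Set 2 alone gave 5 members with a nephritic rhythm, 2 that differed at ZT4, 3 at ZT12, 5 at ZT16 and 4 in level, and the cause was not tested. It called 4486 of 16651 genes for the nephritic rhythm. Of 17339 genes it called 6276 at ZT4, 5080 at ZT12, 4512 at ZT16 and 9686 in level. A cosine in place of time points left 2 members with a different rhythm, among 121 of 17521 genes. Without RX10RU, chosen after seeing the data, 3 members differed at ZT4 and 0 at ZT8, among 4984 and 155 of 17507 genes. Without s9, set apart by its clock gene levels in these data, 3 members differed between ZT0 and ZT12 in remission (202 of 14316 genes). In the ratio against young mice 0 did (0 of 16819), and in level against nephritic mice 1, Npas2 (5844 of 16819). DESeq2 (6674 of 16840) and the bridged run (4031 of 16941) each gave 1 in that level, Csnk1e. DESeq2 gave 3 members for ZT0 against ZT12 in nephritis (594 of 16026 genes) and 0 for the ratio of nephritic against young mice (148 of 16840). For the ratio of remission against young mice DESeq2 (13 of 16840) and limma (0 of 16841) gave 0 members. On leaving out each mouse in turn the counts ran from 1 to 3 at ZT4, 0 to 1 at ZT8, 2 to 4 at ZT16, 5 to 7 in level between nephritic and young, 0 to 3 for ZT0 against ZT12 in remission, 0 to 1 for the same in nephritis, 0 to 1 for the ratio of remission against young, 0 to 1 in level of remission against nephritic and 1 to 3 against young mice. Leave-outs for the amplitude and the alternatives for ZT0 against ZT12 in young and nephritic mice were also added after seeing the data.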
